A study of Ambystoma californiense with 99 samples.

Results

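The brains of male and female tiger salamanders were compared by RNA sequencing. The members were the brain libraries tagged as one of 3 genotypes and holding 1000000 counts or more, which left 43 of the 48 brain columns in the deposited table and of the 99 samples of the series. They came from 14 males and 29 females. The genotypes were the California tiger salamander (CTS, the labelled species Ambystoma californiense), the genotype labelled BTS, taken here to be the barred tiger salamander, and their F1 hybrids. Animals were controls or had been heated acutely until they stayed on their backs for 30 seconds. The CTS brains came from 1 control and 3 heated males and from 4 control and 2 heated females. The BTS brains came from 3 control males, 1 heated male, 2 control females and 5 heated females. The F1 brains came from 3 control and 3 heated males and from 10 control and 6 heated females. The sources used here give no ages. The sexes were unevenly spread over these 6 groups, so every comparison of all brains carried the genotype-by-treatment group as a covariate.

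In the axolotl, a close relative, sex is set by a ZW system in which the female carries both kinds of sex chromosome. The adult vertebrate brain is the seat of hypothalamic neurons that drive the pituitary gland, and the pituitary in turn drives gonads, growth and the stress axis. Sex steroids from the gonad act back on the brain through nuclear receptors, and the brain makes and breaks down steroids itself. Red blood cells of amphibians keep their nucleus, so blood left in a tissue contributes messenger RNA of its own.

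Library totals ran from 4350595 to 13506066 counts in males (median 6191085) and from 3213005 to 8844140 in females (median 6766235). Neuron, radial glia and oligodendrocyte markers were found in every brain, with summed neuron markers of 5865 to 15129 counts per 1000000 (CPM) in males and 6889 to 17242 in females. Several libraries stood apart from their labels or from the rest. Animal 76 is titled BTS and tagged CTS. Animal 64 is a control in its brain label and heated in its muscle label. The brain of animal 7, a heated CTS male, held 2735 CPM of summed skeletal muscle markers, against a male median of 54.6. In 3 brains the prolactin gene PRL, the marker of a major pituitary cell type, was near 0. It stood at 2.89 CPM in the heated F1 male 67, 3.07 in the control CTS female 63 and 4.59 in the heated F1 female 86. The other 40 brains held at least 51.7 CPM. In the header of the brain table the columns of animals 4 and 20, of 9 and 63 and of 12 and 74 stand in each other's place in the number order. Columns were read by name, and whether their names were exchanged was not tested. Summed over 2 retina features before scaling, the column named 63 held 2.57 CPM and that named 9 held 12.4. The column named 4 held 2.70 CPM and that named 20 held 28.2. No CTS brain of the comparison exceeded 6.13 CPM, and no F1 or BTS brain lay below 11.8. By these features 4, 9, 20 and 63 stood with their tagged genotypes, and so did animal 76, tagged CTS, at 3.12 CPM. The column named 74, a BTS male, held 13.8 CPM, below all other BTS brains of the comparison, which ran from 22.3 to 37.5. It lay within the range of the F1 brains, 11.8 to 24.5 CPM, so these features did not place it with its tagged genotype. The cause was not tested, and the column of 12 was not examined in this way. An exchange of 9, an F1 male, and 63, a CTS female, would exchange their sexes.

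Few genes differed between male and female brains. Of 15497 features, 10 passed a Benjamini-Hochberg adjusted p of 0.05 in the quasi-likelihood test of edgeR, which is 0.0645% of the features. Of these, 4 were higher in males (0.0258%) and 6 were lower in males (0.0387%). The genes higher in males were TFR2, SLC4A1, GHRH and a feature that the files name only "minor". The genes lower in males were both gene models named MAN2B1, ARSB, SHD and the features named only "GnRH" and "Protein". An unadjusted p under 0.05 was found for 691 features, against 774.8 given by chance. No feature among all those tested had every male above or every male below every female. TFR2, both MAN2B1 models, ARSB and "Protein" passed in each of the 43 fits that left out 1 library. The other 5 lost their call in some of those fits, as given with each of them. Without animals 64, 76 and 7, whose labels or markers stand apart, 6 genes were called, all among the 10. SLC4A1 (adjusted p = 0.161), GHRH (0.0511), "minor" (0.0633) and "GnRH" (0.23) were then not called. Without animals 4, 9, 20, 63 and 74, whose columns stand out of order, 4 genes were called, all among the 10. They were TFR2 (1.17, adjusted p = 0.000981), ARSB (-2.18, adjusted p = 0.0183) and the abundant (-1.37, adjusted p = 0.0378) and scarcer (-1.62, adjusted p = 0.0126) MAN2B1 models. GHRH, "minor", SLC4A1 and "Protein" then each had an adjusted p of 0.0626, "GnRH" 0.133 and SHD 0.573. The log2 differences of all 10 kept their sign. This omission was chosen after the data were seen.

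**Figure D1:**
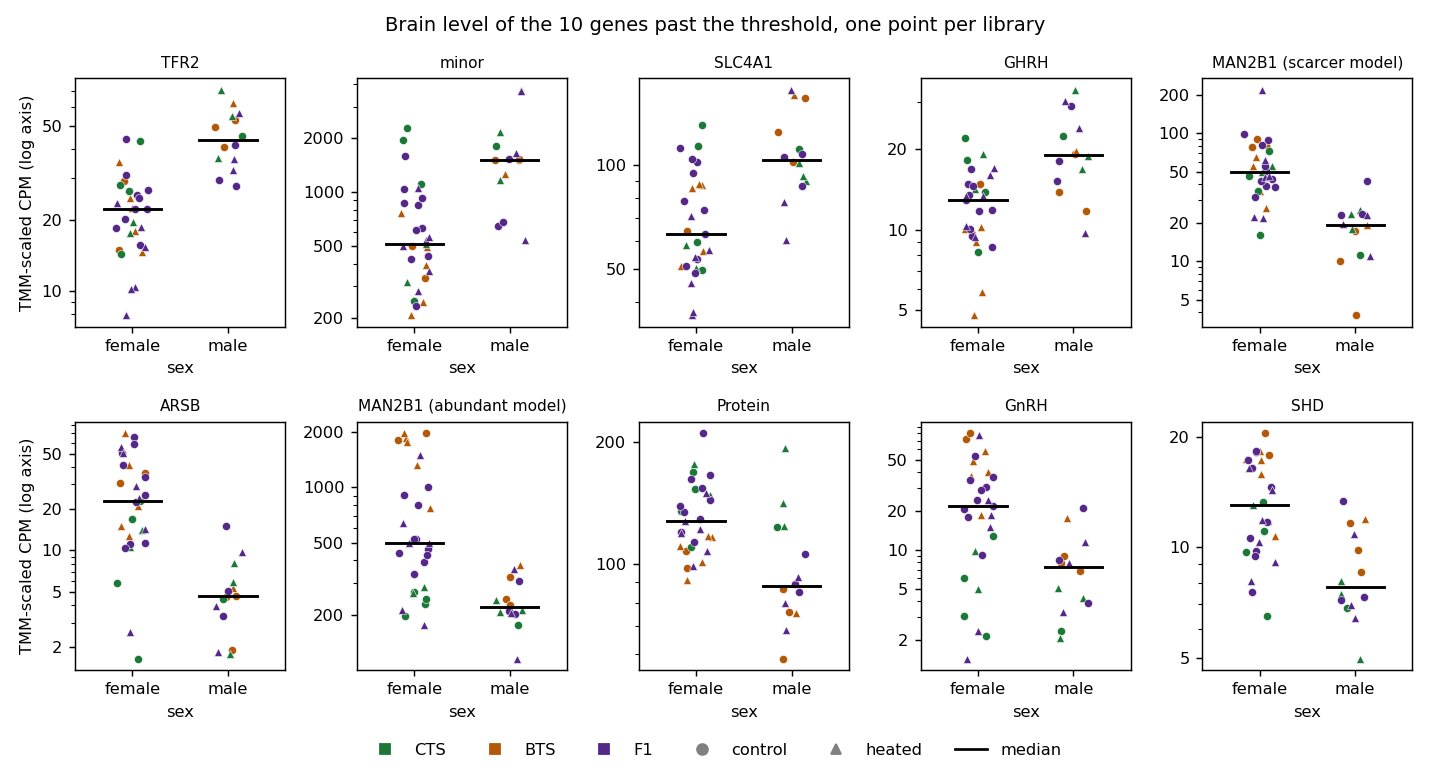
Level of each of the 10 genes past the threshold in 43 brain libraries, as TMM-scaled CPM on log axes, by sex. Points are libraries coloured by genotype (circles control, triangles heated) and bars are medians. The male and female ranges overlap in every panel, and the medians differ most in ARSB.

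TFR2 and SLC4A1, which act in iron sensing and in the red cell, were higher in male brains. TFR2, the second transferrin receptor, senses iron and takes part in red cell formation. Its level (feature AMEXTC_0340000031514) ran from 27.9 through a median of 43.4 to 71.0 CPM in males and from 7.89 through 22.1 to 44.0 CPM in females. All 14 males lay above the female median, 7 lay above every female, and 23 females lay below every male. TFR2 was higher in males by a log2 difference of 1.1 (SE 0.17, adjusted p = 0.000779, edgeR).

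SLC4A1 encodes band 3, the anion exchanger of the red cell membrane. Its level ran from 60.7 through 104 to 166 CPM in males and from 36.6 through 62.9 to 131 CPM in females. Of the 14 males, 13 lay above the female median and 3 above every female. It was 0.69 higher in males (log2, SE 0.14, adjusted p = 0.0398, edgeR). It passed in 26 of the 43 fits that left out 1 library, and its adjusted p reached 0.223 without animal 6, a heated F1 male.

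The feature named "minor" (AMEXTC_0340000069295) was the most abundant of the 10. It ran from 542 through 1518 to 3724 CPM in males and from 206 through 514 to 2265 CPM in females. All 14 males lay above the female median, and 2 lay above every female. It was 1.42 higher in males (log2, SE 0.29, adjusted p = 0.0398, edgeR). It passed in 27 of the 43 fits and reached an adjusted p of 0.235 without animal 6. Its name is cut to 1 word in the files, and no gene identity is given to it here.

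EPOR and alas2, genes of red cell formation, did not pass the test. EPOR, the erythropoietin receptor, ran from 3.87 through 6.19 to 13.3 CPM in males and from 0.691 through 3.08 to 10.9 CPM in females, a difference of 0.98 (log2, SE 0.22, adjusted p = 0.0676, edgeR). All 14 males lay above the female median. alas2, the red cell enzyme that starts haem synthesis, had a difference of 0.81 (SE 0.21, adjusted p = 0.322). The feature named only "beta", to which no identity is given here, had a difference of 1.20 (SE 0.29, adjusted p = 0.163).

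The list of erythrocyte markers matched 4 tested features, SLC4A1, alas2, GATA1 and TFRC. Of these, 1 was called higher in males, beside 0.0258% of all features, all 4 estimates were above 0, and their median was 0.62 on the log2 scale, beside a median of 0.01 over all features tested. The summed level of these markers, with 1 more feature too low to test, ran from 161 through 243 to 380 CPM in males and from 104 through 163 to 261 CPM in females. Whether more red cells were left in the male brains or each held more of these messages cannot be told apart in bulk tissue. In females TFR2 and SLC4A1 varied together from animal to animal. After removal of the mean of each genotype-by-treatment group, Pearson's r was 0.80 over 29 females (permutation p = 1e-05, the smallest possible; adjusted over 30 relations 4.29e-05) and Spearman's rho was 0.77 (permutation p = 1e-05, adjusted 7.5e-05). Without the 2 females farthest from the median of TFR2, r was 0.76. Over the 12 males in groups of more than 1 male, r was 0.70 (permutation p = 0.00823, adjusted 0.0137) and rho was 0.81 (permutation p = 0.00225, adjusted 0.0045), with r at 0.57 without the 2 farthest. Other pairs were weaker. TFR2 and "minor" had r of 0.64 in females (permutation, adjusted p = 0.000525) and 0.51 without the 2 farthest. In the 12 males that r was 0.46 (permutation, adjusted p = 0.164), and 0.01 without the 2 farthest. For TFR2 and EPOR r was 0.41 in females and 0.55 in males (permutation, adjusted p = 0.0415 and 0.0884). Their rho was 0.29 and 0.46 (permutation, adjusted p = 0.175 in both). The pairs were chosen after their values were seen.

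GHRH, the hypothalamic peptide that releases growth hormone, was the 1 gene of the neuropeptide list among those called. Its level ran from 9.67 through 19.0 to 33.2 CPM in males and from 4.79 through 12.9 to 22.0 CPM in females. Of the males, 12 of 14 lay above the female median and 5 above every female. It was 0.67 higher in males (log2, SE 0.14, adjusted p = 0.0398, edgeR). The call held in 23 of the 43 fits without 1 library, and the adjusted p was 0.248 without animal 90, the heated BTS male.

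Both MAN2B1 models and ARSB, named for lysosomal enzymes, were lower in male brains. MAN2B1 encodes the lysosomal alpha-mannosidase, which trims sugars from glycoproteins, and 2 gene models carry this name. Whether they are copies of 1 gene, pieces of it or relatives is not known from the files, so reads could be split between them. The abundant model (AMEXTC_0340000238037) ran from 116 through 222 to 378 CPM in males and from 177 through 495 to 1986 CPM in females. No male lay above the female median, and 20 of the 29 females lay above every male. It was lower in males by a log2 difference of -1.36 (SE 0.24, adjusted p = 0.00536, edgeR).

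The scarcer MAN2B1 model (AMEXTC_0340000052200) ran from 3.80 through 19.4 to 42.4 CPM in males and from 16.1 through 49.9 to 220 CPM in females. No male lay above the female median, and 19 females lay above every male. The log2 difference was -1.64 (SE 0.27, adjusted p = 0.00348, edgeR).

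ARSB, the lysosomal arylsulfatase B that acts on dermatan and chondroitin sulfate, had the largest difference of the 10. It ran from 1.78 through 4.65 to 15.1 CPM in males and from 1.65 through 22.6 to 70.6 CPM in females. No male lay above the female median and 18 females lay above every male, while 1 female lay below every male. The log2 difference was -2.19 (SE 0.37, adjusted p = 0.0035, edgeR).

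hexb.L, a subunit of another lysosomal glycosidase, was looked up after these values were seen. It ran from 19.8 through 38.6 to 73.8 CPM in males and from 22.3 through 56.0 to 228 CPM in females, with a log2 difference of -0.74 (SE 0.23) that did not pass (adjusted p = 0.762, edgeR).

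The feature named "GnRH" (AMEXTC_0340000181043) carries a name cut to 1 word, which does not say whether it encodes the hormone, its receptor or another protein. It ran from 2.09 through 7.36 to 21.0 CPM in males and from 1.44 through 21.8 to 80.6 CPM in females. No male lay above the female median and 15 females lay above every male. The log2 difference was -1.63 (SE 0.34, adjusted p = 0.0419, edgeR). The call held in 17 of the 43 fits, with an adjusted p of 0.106 without animal 90. Another feature with the same cut name, AMEXTC_0340000009370, ran from 2.09 to 10.8 CPM in males and from 3.93 to 10.3 CPM in females, and its log2 difference of -0.06 (SE 0.15) did not pass (adjusted p = 0.983).

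The remaining calls lower in males were small. "Protein" (AMEXTC_0340000033062) ran from 58.3 through 88.0 to 193 CPM in males and from 91.2 through 128 to 211 CPM in females. Here 8 males lay below every female, and the log2 difference was -0.46 (SE 0.08, adjusted p = 0.00806, edgeR). SHD, an adapter protein with an SH2 domain, ran from 4.97 through 7.78 to 13.3 CPM in males and from 6.49 through 13.1 to 20.5 CPM in females, and 13 females lay above every male. Its log2 difference was -0.62 (SE 0.13, adjusted p = 0.0451, edgeR). SHD passed in 11 of the 43 fits, the fewest of the 10 genes, and its adjusted p was 0.133 without animal 6.

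The abundant MAN2B1 model varied with pituitary transcription factors among animals of the same sex. PITX1 is a homeobox factor of the pituitary. With group means removed, its r with the abundant MAN2B1 model was 0.71 over 29 females (permutation p = 0.00013, adjusted over 30 relations 0.00039) and rho was 0.57 (permutation p = 0.00153, adjusted 0.0033). In the 12 males r was 0.91 (permutation p = 0.00017, adjusted 0.000464) and rho 0.89 (permutation p = 0.00032, adjusted 0.00107). Leaving out the 2 animals farthest from the median of MAN2B1 gave r of 0.47 in females and 0.73 in males. With TBX19, another pituitary factor, r was 0.81 in males (permutation p = 0.00513, adjusted 0.00925; rho 0.52, permutation p = 0.0852, adjusted 0.122), and it rested on the 2 farthest males, without which r was 0.19.

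ARSB followed the abundant MAN2B1 model as well. Over the females r was 0.71 (permutation p = 2e-05, adjusted 6.67e-05) and rho 0.68 (permutation p = 1e-04, adjusted 0.00055), with r of 0.61 without the 2 farthest. Over the 12 males r was 0.78 (permutation p = 0.00103, adjusted 0.00238) and rho 0.83 (permutation p = 0.00154, adjusted 0.0033), with r of 0.74 without the 2 farthest. SHD did not follow it, with r of 0.11 in females (permutation, adjusted p = 0.631; rho 0.20, adjusted p = 0.354) and of 0.24 without the 2 farthest. In males that r was -0.04 (permutation p = 0.913, adjusted 0.913; rho -0.01, permutation p = 0.991, adjusted 0.991), and -0.23 without the 2 farthest.

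None of the 8 tested features of the pituitary list was called, beside 0.0645% of all features. Of the 8, 4 had estimates above 0 and 4 below, and the median was 0.02 on the log2 scale. Their summed level ran from 4340 through 8964 to 14731 CPM in males and from 3786 through 7035 to 16509 CPM in females. PITX1 ran from 0 through 8.97 to 18.0 CPM in males and from 0.287 through 10.9 to 25.5 CPM in females (log2 difference -0.18, SE 0.32, adjusted p = 0.98, edgeR). Without the 3 brains low in prolactin, 13 genes were called, 8 of them among the 10, and GHRH (adjusted p = 0.0566) and SHD (adjusted p = 0.0991) were not. The 5 gained were EPOR (1.09, adjusted p = 0.0212), "beta" (1.36, adjusted p = 0.0384), CCKAR (1.14, adjusted p = 0.0384), GREB1 (-0.92, adjusted p = 0.0369) and LOC102932544 (-1.57, adjusted p = 0.00943). This omission was chosen after the data were seen.

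**Figure D2:**
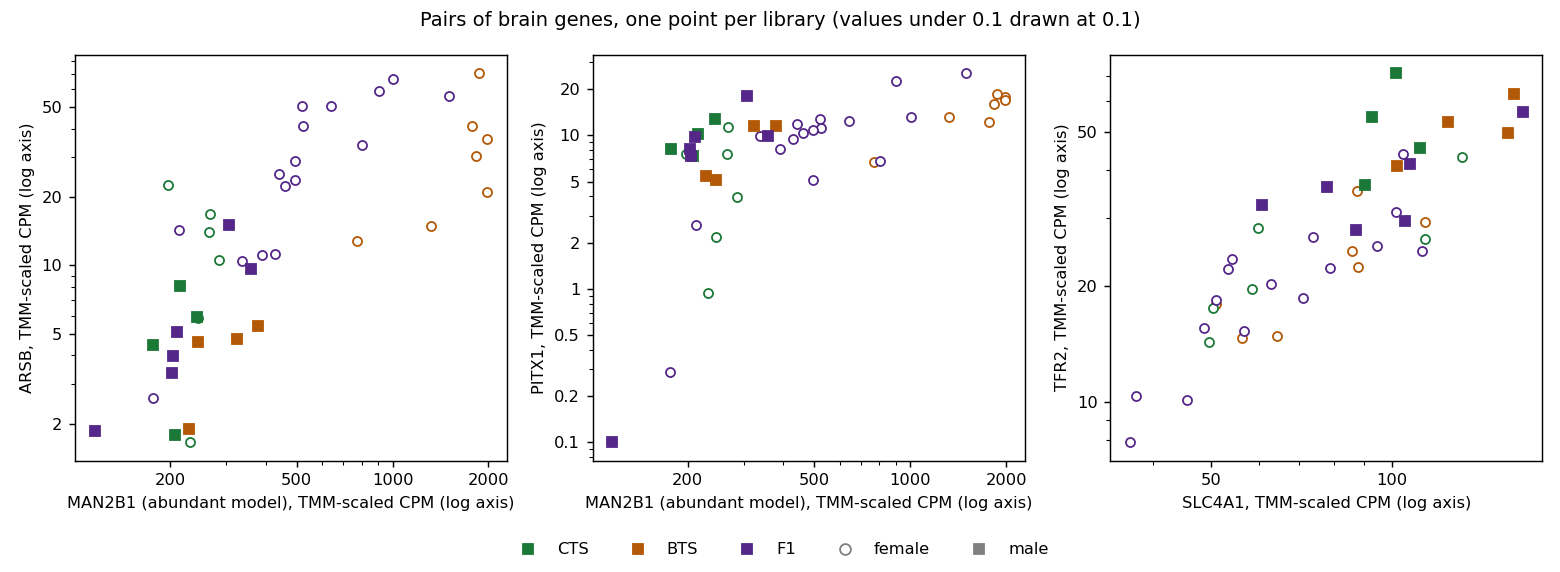
Levels of 3 pairs of genes in 43 brain libraries, as TMM-scaled CPM on log axes. Filled squares are males and open circles females, coloured by genotype. In the left panel ARSB is higher where the abundant MAN2B1 model is higher; in the middle panel PITX1 is near 0 in a few brains; in the right panel males lie toward the upper end of SLC4A1 and TFR2.

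Among the 14 genes next in order of p, none of which passed, several had the same layout. LOC102932544 ran from 1.44 through 15.8 to 45.2 CPM in males and from 0.709 through 68.3 to 187 CPM in females, and 19 females lay above every male (log2 difference -1.62, SE 0.38, adjusted p = 0.149, edgeR). GREB1, a gene induced by oestrogen in human breast cancer cells, ran from 5.18 through 9.78 to 16.3 CPM in males and from 3.73 through 21.1 to 37.2 CPM in females (log2 difference -0.82, SE 0.21, adjusted p = 0.287, edgeR). No male lay above the female median of either gene. HSD11B2, which inactivates glucocorticoids, had a log2 difference of -1.41 (SE 0.37, adjusted p = 0.309).

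On the male side of that group lay CCKAR, a cholecystokinin receptor (1.12, SE 0.25, adjusted p = 0.0676), PLAT, the tissue plasminogen activator (0.48, SE 0.13, adjusted p = 0.309), PIEZO2, a mechanically gated channel (0.39, SE 0.10, adjusted p = 0.309), and top2a, a topoisomerase of dividing cells (1.18, SE 0.31, adjusted p = 0.34). LOC107584241 and DHRS12 also lay there, while HR and adssl1 lay lower in males.

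The 3 genotypes were then compared for the size of the sex difference. The abundant MAN2B1 model was lower in BTS males, at 324, 245, 229 and 378 CPM, than in BTS females, which ran from 772 through 1826 to 1986 CPM. Every BTS female lay above every BTS male. These levels mix treatments unevenly, with 3 control males and 1 heated male beside 2 control and 5 heated females. The share of all features so separated within BTS was not counted. Within BTS the log2 difference was -2.49 (adjusted p = 0.00739, edgeR). In F1 the males ran from 116 through 208 to 359 CPM and the females from 177 through 495 to 1502, a log2 difference of -1.30 (adjusted p = 0.245). In CTS the 4 males stood at 177, 244, 207 and 215 CPM and the females ran from 198 through 256 to 286, a log2 difference of -0.36 (adjusted p = 0.867). The male ranges of the 3 genotypes overlapped, while every BTS female lay above every CTS female. The BTS call was lost without animal 69 or 74, both control males, with an adjusted p of 0.0995 without 74, and no gene was called in BTS without animals 4, 9, 20, 63 and 74 (MAN2B1 -2.50, adjusted p = 0.116; HAO2 -4.71, adjusted p = 0.478).

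HAO2, a peroxisomal hydroxyacid oxidase, was the other of the 2 genes called within BTS (0.0129% of features, both lower in males). The BTS males stood at 0.157, 0.96, 0.712 and 0.703 CPM. Of the 7 BTS females, 5 stood between 14.7 and 40.3 CPM and the other 2 at 0.356 and 0.959 CPM, so the sexes overlapped. The log2 difference was -4.75 (adjusted p = 0.0287, edgeR). CTS and F1 brains of either sex did not exceed 3.79 CPM. Without animal 60, the control female at 40.3 CPM, the log2 difference was -2.51 (adjusted p = 1), and without any 1 of the 4 males the adjusted p was between 0.128 and 0.176. In the fit without animals 64, 76 and 7 the adjusted p was 0.0643.

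Within F1, 3 genes were called (0.0194%), 2 higher in males (0.0129%) and 1 lower (0.00645%). CCKAR stood at 22.1, 24.4, 28.6, 33.7 and 24.9 CPM in 5 F1 males and at 4.75 in male 67, the F1 male with almost no prolactin message. The F1 females ran from 2.30 through 6.47 to 10.5 CPM, below all males but that one. The log2 difference was 1.92 (adjusted p = 0.00101, edgeR). CCKAR passed in each of the 43 fits without 1 library. In CTS the 4 males ran from 2.76 to 5.23 CPM and the females from 3.03 to 6.02, with a log2 difference of -0.40 (adjusted p = 0.88).

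DHRS12, a member of the short-chain dehydrogenase and reductase family, ran from 9.68 through 17.8 to 21.2 CPM in F1 males and from 7.33 through 9.53 to 13.4 CPM in F1 females, and 5 of the 6 males lay above every F1 female. The log2 difference was 0.82 (adjusted p = 0.0125, edgeR). "Protein" was lower in F1 males (-0.61, adjusted p = 0.0203). Without the 3 brains low in prolactin, only CCKAR of the 3 was called in F1, while DHRS12 and "Protein" had an adjusted p of 0.0695. Without animals 64, 76 and 7 both had an adjusted p of 0.163, and both were lost without any 1 of the F1 males 9, 64, 67 and 87, with adjusted p of up to 0.152 and 0.153. Without animals 4, 9, 20, 63 and 74 CCKAR was the 1 call left in F1 (1.96, adjusted p = 0.00319).

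In CTS no gene was called by edgeR (1080 at an unadjusted p under 0.05), and DESeq2 called 9. The test of whether the sex difference depends on genotype called no gene by edgeR or by DESeq2, with 656 and 803 features at an unadjusted p under 0.05. HAO2, CCKAR and the abundant MAN2B1 model had unadjusted p of 0.000192, 0.000502 and 0.00189 in that test, each with an adjusted p of 0.969. The different sizes in the 3 genotypes are therefore not shown to differ.

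**Figure D3:**
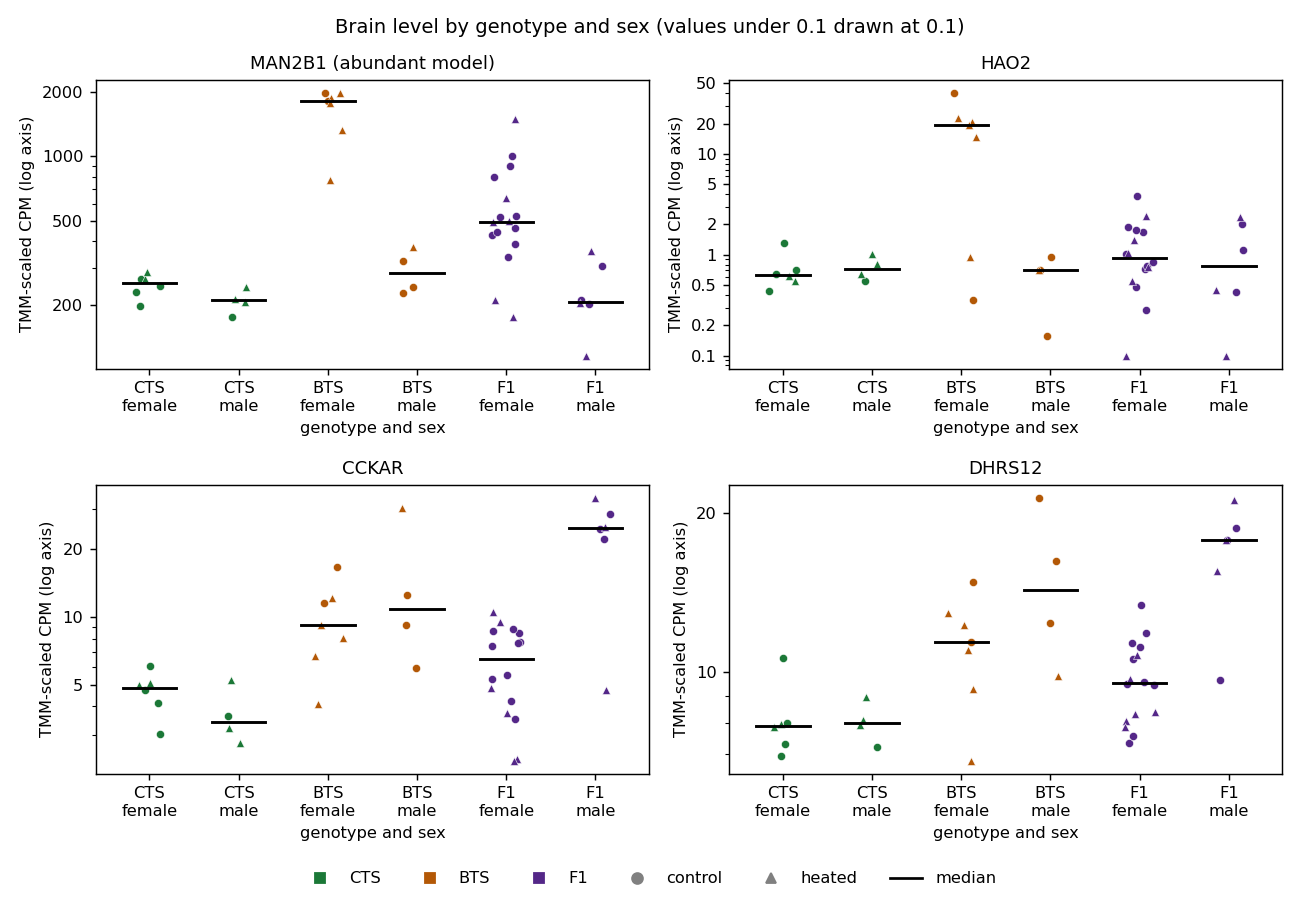
Brain level of 4 genes by genotype and sex, as TMM-scaled CPM on log axes; points are libraries (circles control, triangles heated), bars are medians, and values under 0.1 are drawn at 0.1. MAN2B1 and HAO2 have their highest medians in BTS females, and CCKAR and DHRS12 in F1 males.

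The sexes were also compared within each treatment. Among heated animals, 7 males and 13 females, 6 genes were called, all higher in males (0.0387% of features). They were TFR2, "minor", "beta", SLC4A1, alas2 and LOC108712320, and 3 of them were among the 10 called over all brains. TFR2 ran from 32.4 through 54.8 to 71.0 CPM in heated males and from 7.89 through 17.9 to 35.2 CPM in heated females (log2 difference 1.51, adjusted p = 0.000321, edgeR). In controls it ran from 27.9 through 41.5 to 53.0 CPM in 7 males and from 14.3 through 25.0 to 44.0 CPM in 16 females (0.67, adjusted p = 0.659). The ranges overlapped in both.

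alas2 ran from 30.3 through 71.7 to 171 CPM in heated males and from 19.4 through 27.7 to 63.7 CPM in heated females (1.33, adjusted p = 0.0458, edgeR). In controls the medians were 61.0 CPM in males and 47.2 CPM in females (0.23, adjusted p = 0.778). "minor", "beta" and SLC4A1 had heated differences of 1.97, 1.85 and 0.97 and control differences of 0.77, 0.46 and 0.42, all on the log2 scale. LOC108712320 had a heated difference of 1.40 (adjusted p = 0.0458, edgeR) and a control difference of -0.34. Apart from TFR2, which passed in each of the 43 fits without 1 library, each heated call was lost in most of those fits, and 5 of the 6 were lost without animals 64, 76 and 7. In that fit "minor" (1.85), SLC4A1 (0.99), alas2 (1.32) and LOC108712320 (1.42) had an adjusted p of 0.257 and "beta" (1.69) of 0.295, while TFR2 (1.54) had one of 0.00219. The same 5 were lost without animals 4, 9, 20, 63 and 74, with adjusted p of 0.205 to 0.243, while TFR2 had one of 0.00247. Without the 3 brains low in prolactin, 13 genes were called in heated animals, 5 of them among the 6.

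In controls no gene was called by edgeR (1110 at an unadjusted p under 0.05), and DESeq2 called 8. The test of whether the heat response differs between the sexes called none by edgeR or DESeq2, with 852 and 1021 features at an unadjusted p under 0.05. For TFR2 the heated minus control difference was 0.84 on the log2 scale (adjusted p = 0.768), and for "beta" it was 1.38 (adjusted p = 0.768).

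**Figure D4:**
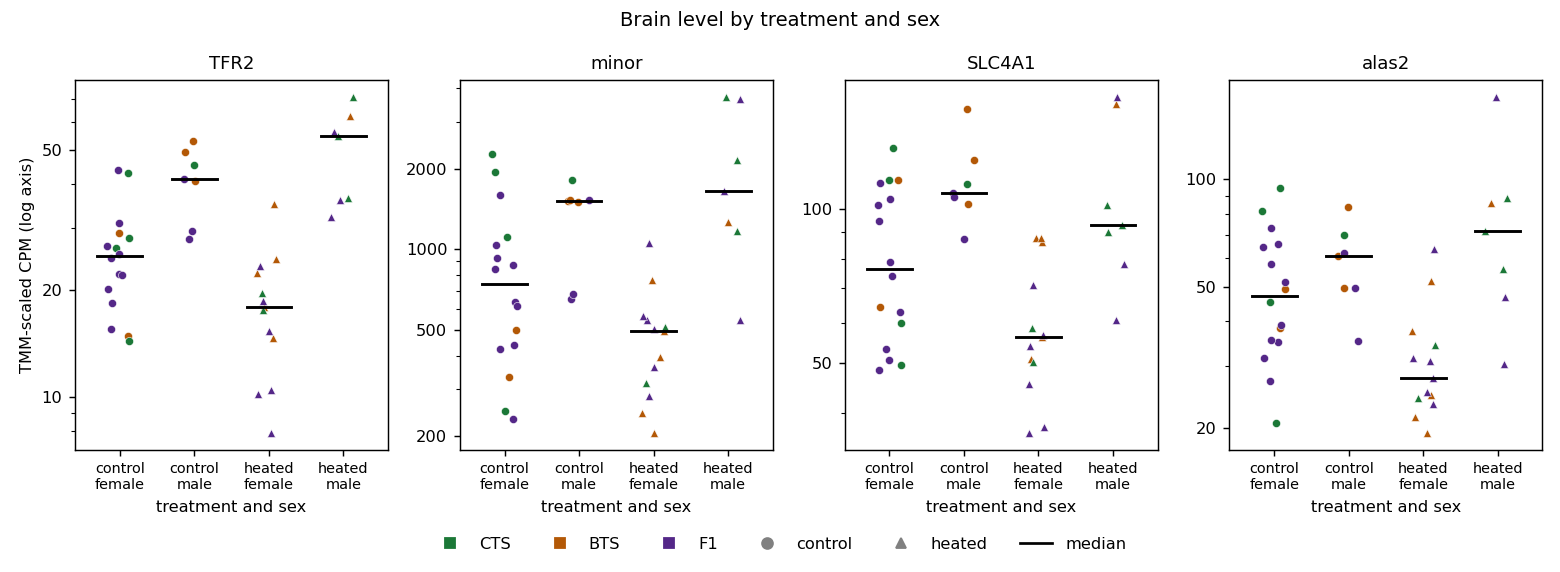
Brain level of 4 genes by treatment and sex, as TMM-scaled CPM on log axes; points are libraries coloured by genotype and bars are medians. In each panel the heated females have the lowest median, and the medians of control and heated males lie above that of control females.

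Genes of the steroid and reproductive axis were described whatever their result. Of the 24 tested features of steroid receptors, steroid enzymes and their co-regulators none was called, beside 0.0645% of all features. Estimates were above 0 for 13 of them, and the median was 0.04 on the log2 scale. With so small a share called, the lack of a call in a list of this size says little about its genes. ar, the androgen receptor, ran from 23.6 through 33.4 to 46.4 CPM in males and from 20.8 through 43.3 to 75.1 CPM in females (log2 difference -0.39, SE 0.14, adjusted p = 0.969, edgeR), and 11 females lay above every male. SRD5A1, a steroid 5-alpha-reductase, had a log2 difference of 0.34 (SE 0.23, adjusted p = 0.969). Features named only "estrogen" were too short of a name to be assigned to a receptor.

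Of the 20 tested features of reproductive and hypothalamic peptides and their receptors, GHRH was the 1 called, beside 0.0645% of all features, 12 estimates were above 0 and the median was 0.01. GAL, the peptide galanin, ran from 27.4 through 110 to 214 CPM in males and from 3.03 through 64.4 to 210 CPM in females (0.72, SE 0.29, adjusted p = 0.969, edgeR). The features named "vasotocin" and "mesotocin" have 1-word names that may be cut, so they are not assigned to hormone or receptor. "vasotocin" ran from 12.8 through 24.7 to 39.9 CPM in males and from 16.3 through 23.8 to 45.6 CPM in females (0.06, SE 0.12, adjusted p = 0.981). "mesotocin" had a log2 difference of -0.37 (SE 0.22, adjusted p = 0.969). PRL ran from 2.89 through 1282 to 2620 CPM in males and from 3.07 through 791 to 3584 CPM in females (0.47, SE 0.44, adjusted p = 0.969).

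No gene of sex determination or gonad development was called among 24 tested features, beside 0.0645% of all features. Here 11 estimates were above 0, with a median of -0.02. ATRX, whose W-linked copy is known in the axolotl, ran from 385 through 608 to 790 CPM in males and from 420 through 582 to 1065 CPM in females (-0.07, SE 0.10, adjusted p = 0.972, edgeR). SOX9 and foxl2, factors of testis and ovary development, had log2 differences of 0.07 (SE 0.12) and -0.35 (SE 0.26). CIRBP, a cold-inducible RNA-binding protein, had one of -0.34 (SE 0.13, adjusted p = 0.969).

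The chaperones of the heat response and the markers of cell types gave no calls apart from SLC4A1, beside 0.0645% of all features called. Of 30 chaperone features 11 estimates were above 0, with a median of -0.04. hspb6 ran from 10.1 through 62.7 to 1113 CPM in males and from 10.9 through 25.8 to 1135 CPM in females (1.52, SE 0.56, adjusted p = 0.969, edgeR), and hsp90aa1.1 had a log2 difference of 0.72 (SE 0.40, adjusted p = 0.969). Among immediate early genes 22 of 27 estimates were above 0, with a median of 0.19. All 9 oligodendrocyte markers had estimates below 0, with a median of -0.32, and their summed level ran from 1836 through 5761 to 12873 CPM in males and from 1226 through 7056 to 11587 CPM in females. None was called, and MBP, the myelin basic protein, had a log2 difference of -0.34 (SE 0.35, adjusted p = 0.969). Among choroid plexus and ependyma markers 7 of 8 estimates were above 0, and KL, which encodes klotho, had a log2 difference of 1.37 (SE 0.53, adjusted p = 0.969).

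Leg muscle of mostly the same animals gave the values of the brain genes in another tissue. There 67 of 12552 features were called (0.534%), 44 higher in males (0.351%) and 23 lower (0.183%). Of the 10 brain genes, 7 were tested in muscle and 3 were called: TFR2 (1.72, SE 0.26, adjusted p = 0.000116, edgeR), "minor" (1.89, SE 0.24, adjusted p = 4.14e-06) and SLC4A1 (1.31, SE 0.26, adjusted p = 0.00567). All 3 were higher in males, as in brain. EPOR (1.70, adjusted p = 0.000335) and alas2 (1.21, adjusted p = 0.0167) were also higher in male muscle. Both MAN2B1 models and ARSB were not called in muscle, with log2 differences of -0.09, -0.15 and 0.23. GHRH, "GnRH" and SHD did not pass the filter on low counts in muscle, where their highest values before scaling were 1.36, 0 and 0.826 CPM.

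Whether the sex difference itself depends on tissue was tested in a joint fit, in which 33 of 16295 features were called (0.203%), 8 with the brain difference above that in muscle (0.0491%) and 25 with it below (0.153%). The 3 lysosomal gene models were among the 25. For ARSB the brain minus muscle difference was -2.41 on the log2 scale (adjusted p = 7.31e-05, edgeR), for the abundant MAN2B1 model -1.27 (adjusted p = 0.01) and for the scarcer one -1.46 (adjusted p = 0.04). With the animal as a replicate block the ARSB call remained, while the MAN2B1 models had an adjusted p of 0.263 and 0.158. Without animals 64, 76 and 7 the scarcer model was not called (adjusted p = 0.0701). Before scaling, ARSB ran from 1.33 through 4.80 to 6.78 CPM in male muscle and from 1.25 through 4.00 to 6.58 CPM in female muscle.

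**Figure D5:**
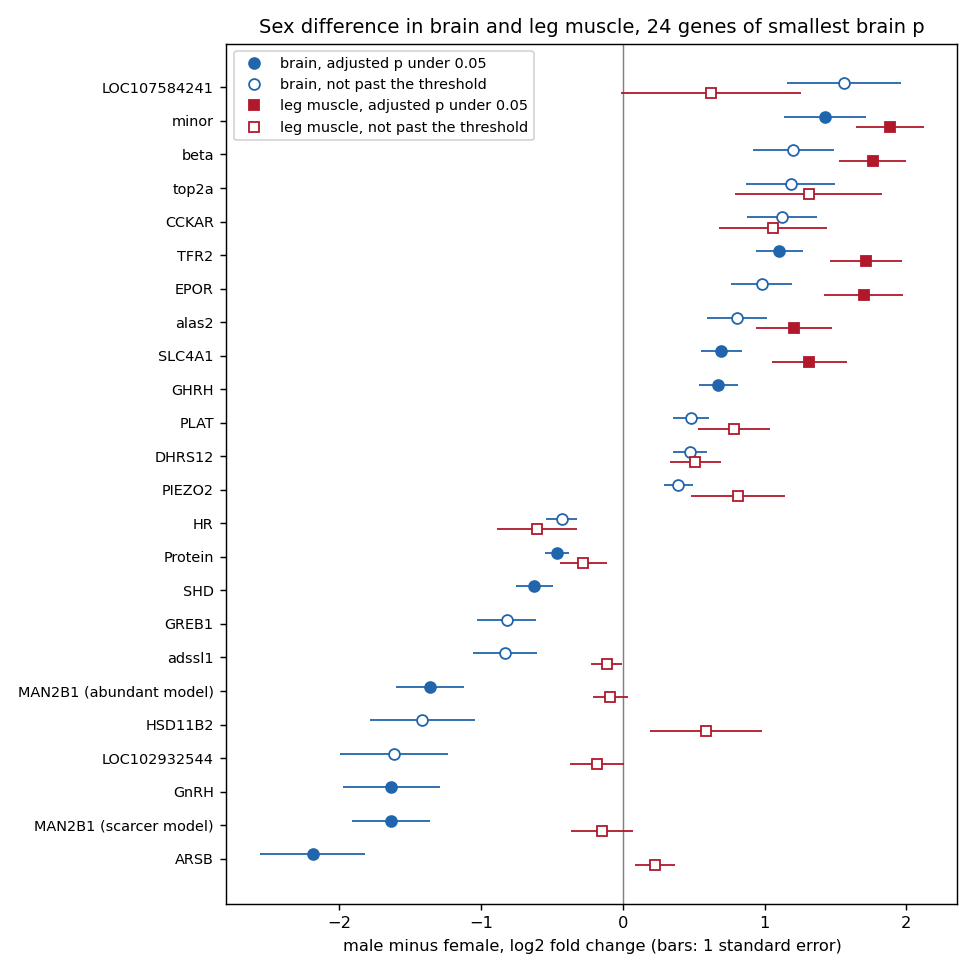
Male minus female log2 fold change, with 1 standard error, in brain (blue circles) and leg muscle (red squares) for the 24 genes of smallest p in brain; filled symbols passed an adjusted p of 0.05. TFR2, "minor" and SLC4A1 are filled in both tissues, while MAN2B1 and ARSB lie near 0 in muscle.

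The 4 backcross brains were outside the comparison and are given as single values. The 3 females were tagged BTSbc control, BTSbc heated and CTSbc heated. The titles of all 4 brains name BTS or F1 instead. The male is animal 12, whose column stands out of number order and was not examined against its tag. TFR2 stood at 71.0 CPM in the 1 backcross male, a heated animal tagged BTSbc, and at 11.2, 15.4 and 22.5 CPM in the 3 females. The abundant MAN2B1 model stood at 192 CPM in that male and at 499, 787 and 456 CPM in the females. ARSB stood at 3.78 CPM in the male and at 29.4, 37.5 and 28.1 CPM in the females. For these 3 genes the male lay beyond all 3 females on the same side as in the comparison. The other called genes are not given for these brains, and 1 male beside 3 females cannot test a difference.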

How the data were processed

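The authors deposited untransformed whole-number counts for each gene model, in brain and in leg muscle. The submitters' processing notes name Trimmomatic, FastQC, STAR and HTSeq, without versions, counting options or a reference build. Libraries were stranded, poly(A)-selected and read as single 100-base reads, per the labels' protocols. Names are those of the files, some cut to their first word, and no sequences were used. Columns were matched to samples by name and grouped by their tags, 1 animal per brain library.

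Features kept by filterByExpr were TMM-scaled and given the quasi-likelihood test of edgeR 4.0.16 (R 4.3.3) with Benjamini-Hochberg adjustment and a threshold of 0.05, two-sided. Each SE is the fold change over the root of its F. DESeq2 1.42.0 and limma voom 3.58.1 were alternatives. The fit was tested on simulated data. Levels are TMM-scaled CPM unless given as before scaling. Correlations used log2(CPM + 0.5). Genes were named if past the threshold, next by p up to 24, in a fixed list, or leading a gene list; others were chosen after their values were seen, as were the omission of animals 63, 67 and 86 and that of animals 4, 9, 20, 63 and 74. An alternative fit with a further covariate, also added after the data were seen, is not reported here. The members and lists were chosen with earlier results of these data known. The brain of animal 17 was not analysed here, and that of animal 16, with 5418 counts, was set aside. Of 90 pairs of libraries of a group, the lowest chi-square per degree of freedom was 8.56, so none was counted as a repeat. Brain and muscle were paired by animal number. Shared animals alone in their group, or with treatment labels that differ between the tissues, were left out of a check of this match. Deviations of the 38 animals kept correlated at 0.157 on average within an animal and -0.00403 between animals. The correlation exceeded 0.1 in 23 of the 38, and the lowest was -0.155, so the match was not shown for each animal.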

Additional observations from a re-analysis of the deposited data

Results flagged for a closer look

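In 4 of the 50 groups of 4 to 10 libraries examined, 1 brain library stood far from the others of its genotype and sex; chance flags about 1 group in 20. For ARSB it was the control BTS male 74, at 1.90 CPM, with the other 3 BTS males between 4.58 and 5.39. For the abundant MAN2B1 model it was the heated BTS female 20, at 772 CPM, with the other 6 between 1325 and 1986. For "minor" it was the heated BTS male 90, at 1259 CPM, with the other 3 between 1508 and 1528. Those 3 were all controls, so an odd library and a difference by treatment cannot be told apart there. For SHD it was the heated BTS female 53, at 10.8 CPM, with the other 6 between 15.8 and 20.5.

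For 3 genes the sex difference departed from that in leg muscle in a test of the difference itself. The brain minus muscle log2 difference was -2.41 for ARSB, -1.27 for the abundant MAN2B1 model and -1.46 for the scarcer one. Brain and muscle came from largely the same animals, and with the animal as replicate block ARSB was called (adjusted p = 0.0309, edgeR) while the abundant and scarcer MAN2B1 models were not (adjusted p = 0.263 and 0.158).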

How the results depend on the processing

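The count of 10 genes for all brains was between 8 and 15 with DESeq2, voom, RLE scaling, either other filter, additive covariates or none, or without animals 63, 67 and 86. It was 6 without animals 64, 76 and 7, 4 without animals 4, 9, 20, 63 and 74, 0 in a fit of control libraries only, 1 in heated libraries only and 1 in F1 libraries only; fewer samples entered these fits. Leaving out 1 library gave 5 to 12 genes for all brains, with 5 without animal 2, 11, 14, 24, 44, 52, 68, 90 or 91 and 6 without 4, 6 or 76. It gave 1 to 10 in heated animals, 0 to 3 in controls, 0 to 3 in BTS and 1 to 4 in F1.

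DESeq2 called 7 genes in BTS, 8 in controls, 9 in CTS, 10 in F1, 21 in heated animals and 189 in muscle, against 2, 0, 0, 3, 6 and 67 by edgeR. Without animals 4, 9, 20, 63 and 74 there were 0 in BTS, 1 in F1 and 1 in heated animals. Without animals 63, 67 and 86 there were 1 in F1 and 13 in heated animals. Without animals 64, 76 and 7 there were 1 in BTS, 1 in F1, 1 in heated animals and 16 for dependence on tissue. With the animal as replicate block, which pairs brain and muscle, 5 genes depended on tissue, 2 of them among the 33. The causes of these changes were not tested. Without a covariate 12 genes were called, 9 higher and 3 lower in males, and 6 of them were among the 10. No called gene followed through these alternatives changed direction. The genes next in order of p, which were not called, kept their sign in every fit that left out 1 library. Each brain library is numbered as a separate animal, and the p-values measure the spread between animals of unequal numbers per sex and group.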

Other observations

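Lists of other cell types and functions gave no calls in brain, beside 0.0645% of all features called. Of 31 features of transmitter synthesis, transport and monoamine receptors, 10 estimates were above 0 (median log2 male minus female -0.03). Of 11 neuron markers 5 were above 0 (median -0.04), of 12 radial glia and astrocyte markers 4 (median -0.06), of 8 microglia and immune markers 2 (median -0.12) and of 11 endothelium markers 7 (median 0.04). Of 16 skeletal muscle markers 13 were above 0 (median 0.09), of 11 skin and connective tissue markers 7 (median 0.07) and of 19 cell division genes 8 (median -0.02). The median over all features tested was 0.01. The summed microglia and immune markers ran from 162 through 306 to 413 CPM in males and from 207 through 287 to 432 CPM in females, so the ranges overlapped.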
